A study of Homo sapiens with 9 samples.

Results

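Clone P9 is 1 of 4 K562 clones whose SRSF2 carries the P95H substitution, and it is 1 library of the 9 in the series. It was set against the other P95H clones, P15, P22 and P38 (3 libraries), across 20636 tested genes. Genes of the short arm of chromosome 1 from TPRG1L to LAMTOR5, called the block here, were described apart from the rest, because earlier results of these data showed them lower in P9. The block held 2127 gene IDs, of which 1533 had a count, 952 were tested and 599 reached a mean of 5 CPM over the 4 P95H clones. Outside it, 19684 genes were tested and 11170 reached that level. Levels are in CPM, the count of a gene relative to all reads counted in genes of its library after TMM scaling.

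K562 is a human erythroleukaemia line derived from a patient with chronic myeloid leukaemia. All clones were made from it by CRISPR editing: the P95H clones P9, P15, P22 and P38, and the clones with wild-type SRSF2 W19, W33, W36 and W42 (WT clones), beside the parental line. Each clone is 1 library, and whether they arose in separate editing events is not in the labels. A p-value here therefore reflects variation from clone to clone, which may be technical. SRSF2 is a serine- and arginine-rich splicing factor. The values here are reads per gene, which show neither the substitution nor splice forms.

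The block holds genes of many kinds. Among them are ribosomal proteins such as RPL5 and RPL11, which besides building the large ribosomal subunit bind MDM2, the splicing factors SFPQ and SRSF4, the glycolytic enzyme ENO1 and the histone deacetylase HDAC1. TAL1, a helix-loop-helix factor needed for blood stem cells and the red cell lineage, also lies in it. HBE1, the embryonic beta-like globin on chromosome 11, and GNB1L, a WD-repeat gene on chromosome 22, lie outside it. K562 cells are known for making embryonic and fetal globins. DNA copy number was not analysed here.

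Reads counted in genes came to 25208033 in P9, 30407317 to 32593383 in the other P95H clones, 24546255 to 30902602 in the WT clones and 35477328 in the parental line, and 43.3 to 44.2% of listed reads lay in genes. A few libraries stood apart from their group. W33 had the lowest block median of the WT clones, P15 differed from all others along chromosome 11, and P22 differed in several blood-cell genes, such as CD53 and KIT. Results that rest on them are given with their values. SRSF2, the edited gene, had 444 CPM in P9, against 456 in P15, 518 in P22 and 578 in P38. It was lowest in P9, and the edgeR log2 difference was -0.22 (SE 0.18), with an adjusted p of 1. GATA1, the erythroid factor that marks K562, had 216 CPM in P9, against 254 in P15, 268 in P22 and 214 in P38, so its level was close in all 4.

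Across the block, genes were lower in P9 almost throughout. The median gene stood 0.392 below the mean log2 CPM of P15, P22 and P38, a ratio of 0.762, and the middle 50% of the genes lay between -0.556 and -0.221. P9 was below all 3 other clones at 450 of 599 genes (75.1%), within their range at 131 (21.9%) and above all 3 at 18 (3.01%). Among all 11769 genes at this level, 23.0% had P9 below all 3 and 23.7% had it above, and outside the block these shares were 20.2% and 24.8%, with a median of 0.02. The members were chosen on this contrast, so the counts describe them and no test is given. In bulk RNA, fewer cells of a type and less RNA per cell cannot be told apart. An exact permutation test of 1 clone against 3 cannot give a p under 0.25.

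Set against the WT clones, the block median of P9 was -0.31. P15, P22 and P38 had block medians of 0.06, 0.06 and 0.07 against the same WT mean, and the parental line had 0.06. P9 was below all 4 WT clones at 320 genes (53.4%, against 27.8% of all genes) and above all 4 at 37 (6.18%, against 27.3%). W33 had a block median of -0.15, while W19, W36 and W42 had 0.05, 0.07 and 0.05. Without W33, P9 was below all remaining WT clones at 480 block genes (80.1%) and at 34.0% of the genes outside. Block genes took 4.81% of gene counts in P9, 6.07 to 6.23% in the other P95H clones, 5.28% in W33, 6.16 to 6.29% in the other WT clones and 6.23% in the parental line. When each P95H clone in turn was set against the other 3, P9 was lowest at 450 genes, P15 at 42, P22 at 69 and P38 at 38. W33 was lowest of the WT clones at 362 block genes (60.4%), but also at 41.0% of the genes outside. It was highest of them at 157 block genes (26.2%) and at 45.3% of the genes outside, so it differed in both directions.

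**Figure D1:**
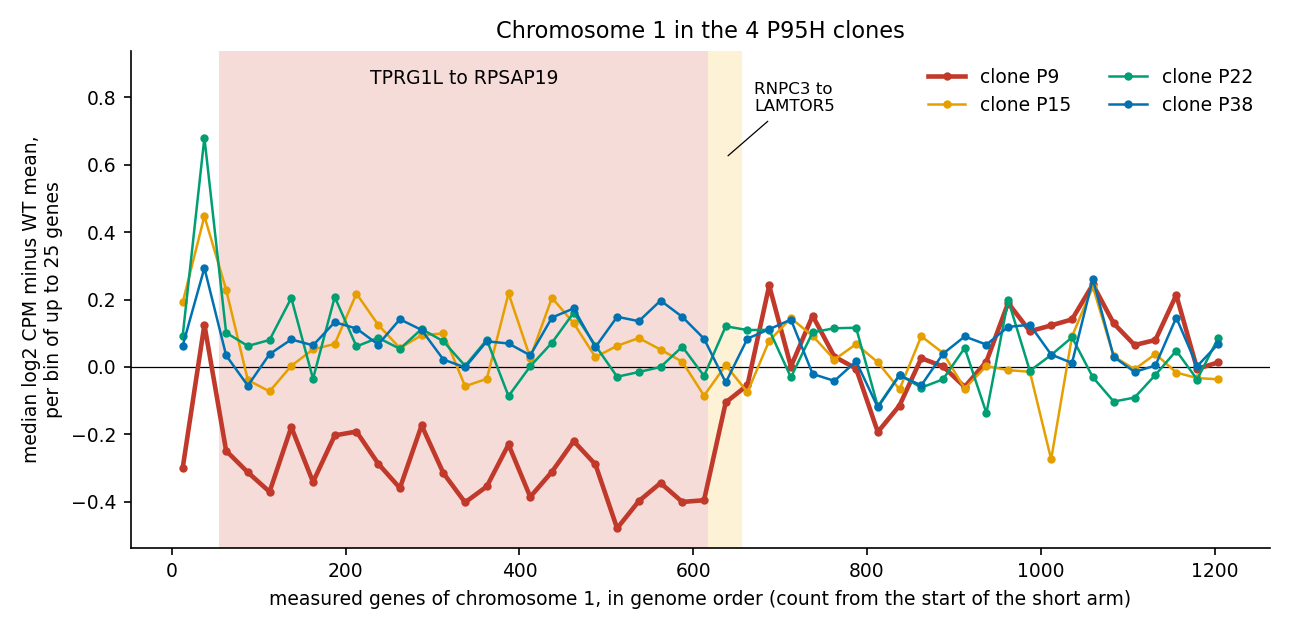
Median log2 CPM minus the WT mean, in bins of up to 25 genes with a mean of 5 CPM or more, along chromosome 1 in gene order, for P9 (red), P15, P22 and P38. Shading marks the genes from TPRG1L to RPSAP19 and from RNPC3 to LAMTOR5. P9 runs below 0 through the first shaded stretch and meets the other clones in the second.

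The lower level ended before LAMTOR5. From TPRG1L to RPSAP19 the median was -0.41, a ratio of 0.755, and P9 was below all 3 other clones at 435 genes (77.4%) and not at 127. In the remaining 37 genes, from RNPC3 to LAMTOR5, the median was -0.07 and 15 genes (40.5%) had P9 below all 3. The step fell between neighbours: RPSAP19, a pseudogene, had 57.8 CPM in P9, against 68.9 in P15, 82 in P22 and 96.6 in P38, while RNPC3, a protein of the minor spliceosome, had 15.1 CPM in P9, against 15.5 in P15, 16.4 in P22 and 15 in P38. P9 was below all 3 at the first and within their range at the second. The block was chosen on this contrast and the limit at RPSAP19 was set after the values were seen, so its bins are only described. All 21 bins of 25 genes lying wholly in the lower stretch had medians from -0.54 (MYSM1 to LRRC40) to -0.30. The 395 bins on chromosomes other than 1 and 11, not chosen this way, ranged from -0.22 to 0.23. On chromosome 11, where P15 stood apart, bins ran from -0.33 to 0.30. Its lowest bin, SLC25A22 to SLC22A18, overlaps the bins of the lower stretch. The 54 genes that follow LAMTOR5 up to the largest gap between genes had a median of -0.003, and the 507 genes beyond the gap had 0.05.

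At its other end the block has no such step against the other P95H clones, since the 56 genes before TPRG1L also had a median of -0.38, with P9 below all 3 at 39 (69.6%). Set against the WT clones, however, P9 had a median of -0.07 there, and P15, P22 and P38 had 0.30, 0.33 and 0.15. In the bin from AURKAIP1 to PEX10 all 4 P95H clones were above the WT mean, by 0.13 in P9, against 0.45 in P15, 0.68 in P22 and 0.29 in P38. TPRG1L, at the chosen edge, had 12.2 CPM in P9, against 28.8 in P15, 17.4 in P22 and 17.7 in P38, and the WT clones held 15.7 to 18.7 CPM. P9 was below every clone. Just outside, ARHGEF16 had 9.34 CPM in P9, against 15.6 in P15, 5.28 in P22 and 12 in P38, and P9 was within the range of the others. At the far edge, LAMTOR5, a subunit of the Ragulator complex on lysosomes, had 108 CPM in P9, against 128 in P15, 117 in P22 and 118 in P38, which put P9 within the WT range of 104 to 130.2 CPM. Just beyond it CD53, a leukocyte tetraspanin, had 9.41 CPM in P9, against 4.29 in P15, 154 in P22 and 12.1 in P38, and its spread came from P22.

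Genes of the translation machinery were lower in P9, as were most block genes. Of 15 measured on the short arm list, P9 was below all 3 other clones at 14 and above at 1, NOL9, and the list's median edgeR log2 difference was -0.44, against -0.40 over all 952 tested block genes and -0.02 over all genes tested. Among all genes tested, P9 was below all 3 at 23.2% and above at 24.6%. Among the 952 tested block genes, these shares were 61.9% and 6.93%. Between TPRG1L and RPSAP19, P9 was below all 3 at 84.4% of the 141 genes with a mean of 105.2 CPM or more over the 9 libraries. The count of this list is therefore not particular to its gene class. RPL11 had 1565 CPM in P9, against 2205 in P15, 2211 in P22 and 2578 in P38. P9 was the lowest of the 4, and the WT clones, at 2013 to 2438 CPM, were also higher. EIF3I, a subunit of the initiation factor eIF3, had 346 CPM in P9, against 474 in P15, 436 in P22 and 484 in P38. RPF1, a large-subunit assembly factor, had 54.6 CPM in P9, against 90.5 in P15, 95.1 in P22 and 99.5 in P38. P9 again lay below every other clone, with log2 differences of -0.42 for EIF3I and -0.80 for RPF1.

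RPL5 and RPL22, both large-subunit proteins, have processed copies on other chromosomes, and the coding bases below show how far gene and copy differ. They are taken from the GENCODE 29 transcripts. Capitals mark the bases that differ between each pair, at positions counted from the first base of the gene's coding sequence.
RPL5: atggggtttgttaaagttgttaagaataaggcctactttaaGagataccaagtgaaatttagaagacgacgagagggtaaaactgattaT
RPL5P34: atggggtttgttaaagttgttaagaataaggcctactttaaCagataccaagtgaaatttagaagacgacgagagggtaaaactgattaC
RPL22: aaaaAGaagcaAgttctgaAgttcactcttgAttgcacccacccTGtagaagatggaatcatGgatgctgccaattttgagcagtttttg
RPL22P8: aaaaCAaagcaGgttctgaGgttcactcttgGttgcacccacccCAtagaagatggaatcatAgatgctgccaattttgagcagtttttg
The RPL5 bases are 1 to 90 of the coding sequence (chromosome 1), and RPL5P34 (chromosome 22) differs at 2 of them, G42C and T90C. Over 891 aligned bases that pair was 95.7% identical. The RPL22 bases are 40 to 129 (chromosome 1), and RPL22P8 (chromosome 2) differs at 8. Over 339 aligned bases that pair was 92.6% identical.

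Copies of block genes that lie elsewhere were also lower in P9 at most places. RPL5 had 345 CPM in P9, against 515 in P15, 511 in P22 and 639 in P38, and RPL5P34 had 257 CPM in P9, against 449.6 in P15, 434 in P22 and 493 in P38. RPL22 had 297 CPM in P9, against 377 in P15, 387 in P22 and 449.9 in P38, and RPL22P8 had 2.6 CPM in P9, against 14.6 in P15, 9.46 in P22 and 13.9 in P38. P9 was lowest at all 4. Of 42 measured pseudogenes outside the lower stretch whose parent lies in it (22 parents), P9 was below all 3 other clones at 36 (85.7%) and above at 1, PNRC2P1, and the median was -0.46. Of 22 pseudogenes inside it whose parent lies elsewhere, P9 was below all 3 at 9 (40.9%) and above at 3, with a median of -0.12. Of 570 with gene and parent both elsewhere, P9 was below at 37.2%, and the median was -0.07.

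Reads that aligned to several places made up 5.06 to 6.06% of listed reads and were counted in no gene. The share of 50-base windows of a pseudogene that its parent's transcripts hold letter for letter had a median of 15.7% over the 35 of these 42 with a usable sequence. Among the 29 that shared under 50% of their windows, P9 was below all 3 at 25 (86.2%). RPL5P34 shared 13.4% and RPL22P8 shared 2.07%. Whether reads of the parents were placed in the copies was not tested. Counts of genes outside the block include these copies.

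**Figure D2:**
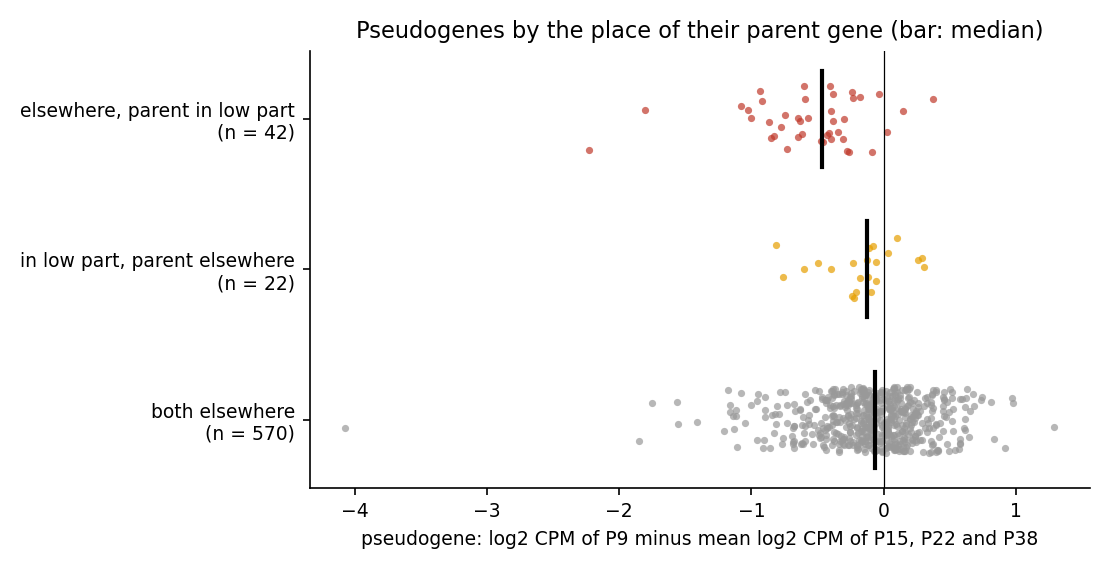
Log2 CPM of P9 minus the mean log2 CPM of P15, P22 and P38 for pseudogenes with a mean of 5 CPM or more, by whether the pseudogene or its parent lies between TPRG1L and RPSAP19. Points are pseudogenes, with random vertical scatter, and bars are medians. The 42 copies elsewhere with a parent in the lower stretch centre at -0.46, and the 22 copies inside it with a parent elsewhere centre at -0.12.

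Enzymes of energy and carbon metabolism were lower as well: of 27 measured, P9 was below all 3 other clones at 23, within their range at 4 and above at none, with a median of -0.56. Most block genes were lower in P9, with P9 below all 3 at 61.9% of those tested and at 75.1% of those with a mean of 5 CPM. Counts for this and the short arm lists that follow stand beside those shares and are not particular to a gene class. ENO1 had 1766 CPM in P9, against 2490 in P15, 2420 in P22 and 2915 in P38, and the WT clones held 3057 to 3339 CPM. PRDX1, a peroxiredoxin that reduces hydrogen peroxide, had 460.2 CPM in P9, against 699.7 in P15, 681 in P22 and 715 in P38. P9 was lowest of all 9 libraries at both. Of 8 genes of lipid and sterol synthesis P9 was below at 7.

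Among 32 regulators of chromatin and transcription, P9 was below all 3 other clones at 28 and within their range at 4, with a median of -0.38. HDAC1 had 174 CPM in P9, against 235 in P15, 254 in P22 and 259.7 in P38. RBBP4, a histone-binding subunit shared by several chromatin complexes, had 281 CPM in P9, against 341 in P15, 427 in P22 and 434 in P38. P9 lay clearly under the others at both, but at RBBP4 W33 was the lowest library, at 276.9 CPM. KDM1A, the histone demethylase LSD1, had 285 CPM in P9, against 339.9 in P15, 612 in P22 and 299.6 in P38, so P22 stood far above the rest and P9 lay above the WT range of 265 to 277 CPM. JUN, an immediate early AP-1 factor, had 20.1 CPM in P9, against 57.6 in P15, 31.8 in P22 and 39.5 in P38.

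Of 27 genes of the cell cycle and DNA replication, P9 was below all 3 at 22, within their range at 4 and above at 1, CLSPN. STMN1, a protein that destabilises microtubules, had 677 CPM in P9, against 1038 in P15, 1065 in P22 and 1070 in P38. NASP, a histone chaperone, had 589 CPM in P9, against 667 in P15, 729 in P22 and 712 in P38. P9 was lowest of all libraries at both. Among 22 genes of apoptosis, stress and signalling, P9 was below at 16 and within range at 6, and it was below at all 3 snoRNA host genes measured, SNHG3, SNHG12 and RCC1. At SNHG12, P9 at 80.4 CPM was still above the WT clones, at 68.7 to 73.3 CPM.

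Genes for splicing and RNA-binding proteins had the smallest median difference of the short arm lists. Of 24, P9 was below all 3 other clones at 19, within range at 4 and above at 1, with a median of -0.26. SRSF4, of the same family as SRSF2, had 208 CPM in P9, against 263 in P15, 269 in P22 and 237 in P38. YBX1, an RNA-binding cold-shock protein, had 453 CPM in P9, against 685 in P15, 573 in P22 and 649 in P38. P9 was lowest at both. The 4 within range were SFPQ, HNRNPR, KHDRBS1 and THRAP3, and the 1 above was PRPF38B, which lies beyond RPSAP19. SFPQ had 758 CPM in P9, against 846 in P15, 741 in P22 and 805 in P38, and HNRNPR had 408 CPM in P9, against 388 in P15, 475 in P22 and 456 in P38. Of 5 microRNA machinery genes, P9 was below at 4 and within range at AGO4, where it stood at 26.2 CPM.

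Blood-cell regulators and receptors on the short arm had P9 below all 3 other clones at 11 of 14 and within range at 3, with the lowest median of these lists, -0.74. The values of P22 were high at several, among them LAPTM5, KDM1A and CSF3R, and against the WT clones the same list had a median of -0.13. TAL1 had 97.2 CPM in P9, against 171 in P15, 78.5 in P22 and 126 in P38. P9 was thus within the range of the other P95H clones and close to the WT clones, at 88.4 to 103 CPM, and to the parental line, at 90.1 CPM. P15 was the clone that stood high, and TAL1's edgeR log2 difference was -0.37 (SE 0.35), -0.09 without P15 and -0.63 without P22. TAL1 overlaps a gene on the other strand, and the standard form of the kit named does not separate strands. Its neighbour STIL, a centriole protein, had 64.1 CPM in P9, against 72.8 in P15, 79.5 in P22 and 82.2 in P38, with P9 below all 3 and within the WT range of 34.9 to 91.3 CPM.

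Of 8 red cell genes in the block, P9 was below all 3 other clones at 4 and within range at 4. UROD, a heme synthesis enzyme, had 385 CPM in P9, against 492 in P15, 501 in P22 and 576 in P38, and P9 was the lowest library. EPB41, protein 4.1 of the red cell skeleton, had 338 CPM in P9, against 529 in P15, 355 in P22 and 377 in P38, and the WT clones held 223 to 401 CPM. RHD, RHCE, SLC2A1 and ERMAP were within range, with P15 highest at each. RHD and RHCE are near-identical copies, so their counts are uncertain.

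**Figure D3:**
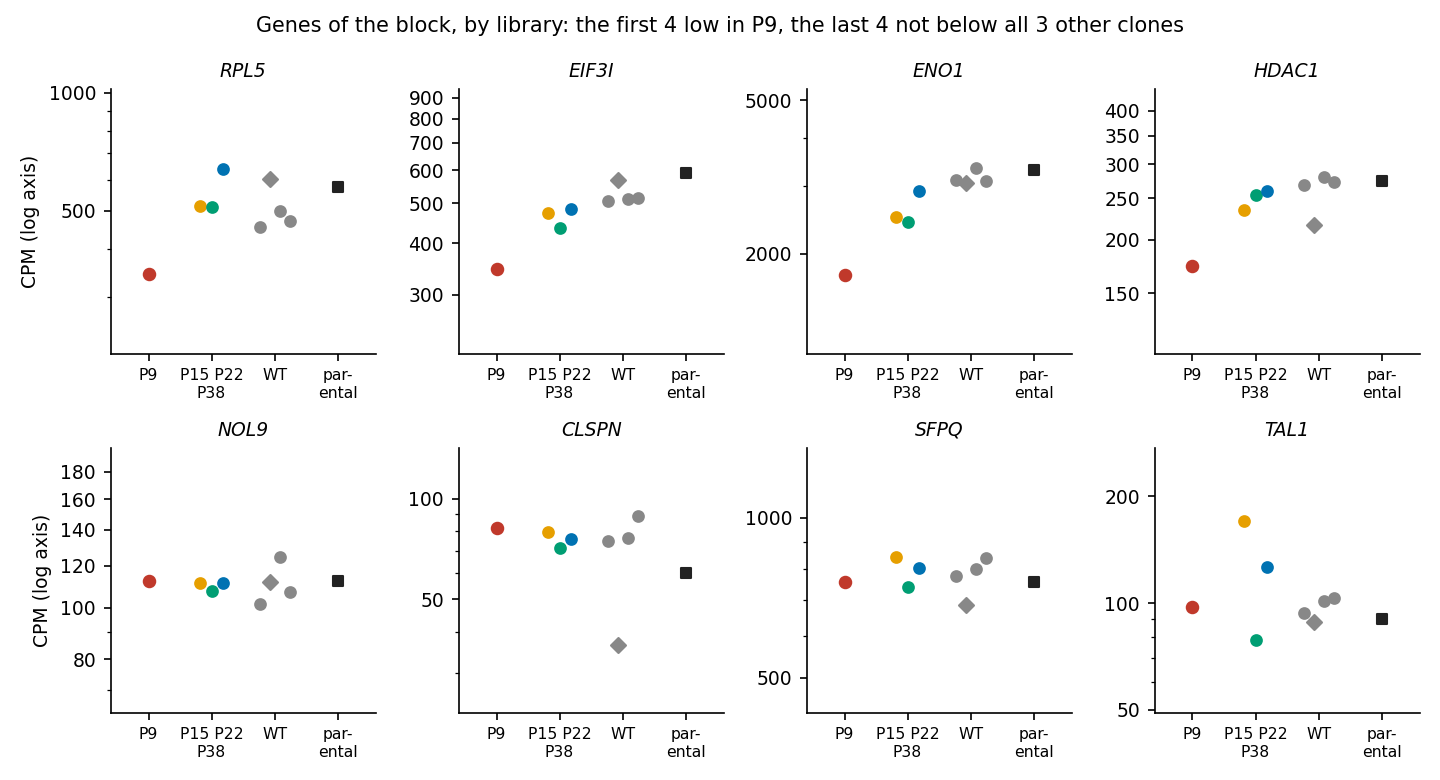
CPM on a log axis for 8 block genes in each library: P9, then P15 (orange), P22 (green) and P38 (blue), the 4 WT clones (W19, W33, W36 and W42 from left to right, W33 as a diamond) and the parental line. P9 lies under the other P95H clones at RPL5, EIF3I, ENO1 and HDAC1, and not at NOL9, CLSPN, SFPQ and TAL1.

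The genes with the lowest P9 values relative to the others were mostly weakly expressed. GNG12, a G protein gamma subunit, had 0.497 CPM in P9, against 3.73 in P15, 18.9 in P22 and 5.05 in P38, and the WT clones held 6.11 to 13.3 CPM. GBP2, an interferon-induced GTPase, had 3.33 CPM in P9, against 15.9 in P15, 4.33 in P22 and 13 in P38. NMNAT1, which makes NAD in the nucleus, had 7.92 CPM in P9, against 20.4 in P15, 21.1 in P22 and 21.9 in P38. P9 was the lowest library at all 3, but P22 was close to it at GBP2. PPCS, a coenzyme A synthesis enzyme, MICOS10, a subunit of the mitochondrial contact site complex, and CNKSR1, a scaffold of Ras signalling, had log2 differences of -1.39, -1.39 and -1.36, with the 3 other clones close together at each. CRYZ, a quinone reductase, had 36.5 CPM in P9, against 66.5 in P15, 91.1 in P22 and 82.8 in P38. The differences of the 12 genes of this kind, named by rank, ran from -1.12 to -3.67.

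Genes without the shared lower level were few once the spread of the other clones was limited. The genes with P9 above all 3 had a median level of 17.4 CPM over the P95H clones and those within range 24.6 CPM, against 52.3 CPM for those below. The SD of log2 CPM over P15, P22 and P38 had a median of 0.15 at genes above, 0.31 at genes within range and 0.14 at genes below. A wide spread of the 3 clones by itself puts P9 within their range, and outside the block these medians were 0.13, 0.22 and 0.13. When the genes between TPRG1L and RPSAP19 were ranked by level into 4 groups of equal size, P9 was below all 3 at 57.4% of genes in the lowest group and at 80.0%, 87.9% and 84.4% in the others, while medians stayed between -0.39 and -0.42. Among the 341 genes with an SD under 0.2, a limit chosen after the values were seen, P9 was below all 3 at 309 (90.6%), within range at 24 and above at 8 (2.35%). Outside the block, the same limit gave 26.5% below and 31.8% above over 6344 genes. At 221 genes with a wider spread, P9 was below at 57.0%.

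Between TPRG1L and RPSAP19 P9 was above all 3 at 14 genes, of which 6 were protein coding, 6 were pseudogenes and 2 were antisense genes. NOL9, a polynucleotide kinase of ribosomal RNA processing, had 112 CPM in P9, against 111 in P15, 107 in P22 and 111 in P38. CLSPN, claspin, an adaptor of the replication checkpoint, had 81.6 CPM in P9, against 79.3 in P15, 71 in P22 and 75.8 in P38. Both lay within the WT range, of 101 to 125 CPM and 36.5 to 88.7 CPM. MYCL, a MYC family factor, had 12.7 CPM in P9, against 11.6 in P15, 9.31 in P22 and 10.3 in P38. PAQR7, a membrane progestin receptor, had 14.1 CPM in P9, against 12.8 in P15, 11.8 in P22 and 12.7 in P38. UTS2, which encodes urotensin and overlaps PER3 on the other strand, and ODF2L had P9 at 11.9 and 5.97 CPM, where the other P95H clones held 9.23 to 11.8 CPM for UTS2 and 3.98 to 5.38 CPM for ODF2L. The gaps at NOL9, CLSPN, PAQR7 and UTS2 were small, with log2 differences of 0.03 to 0.18.

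The largest values among these 14 were at pseudogenes. ENSG00000238084 had 22 CPM in P9, against 8.06 in P15, 14.7 in P22 and 16.9 in P38. ENSG00000226396 had 36.4 CPM in P9, against 19.9 in P15, 20.7 in P22 and 30.9 in P38. P9 was above every other library at both. ENSG00000235105, which overlaps SPATA6, had 17.3 CPM in P9, against 10.8 in P15, 11.5 in P22 and 11.6 in P38, and the WT clones held 4.76 to 8.8 CPM. The antisense gene ENSG00000232335 overlaps CLSPN, and its reads cannot be told apart from those of CLSPN. EIF1AXP1, SPCS2P4 and SEC63P1 have their named parents on other chromosomes. The nearest measured genes on both sides of the 14 gave 28 neighbours, and P9 was below all 3 other clones at 20 of them, within range at 6 and above at 2, with 24 log2 differences negative. CLSPN and ENSG00000232335 neighbour each other. ESPN before NOL9 was within range, but its log2 difference of 1.21 was larger than that of any of the 14. Across the block, 51 of 599 genes had a log2 difference of 0 or more.

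Of the 24 genes of narrow spread at which P9 was within range, several encode nuclear RNA-binding or replication proteins. These were named after their values were seen. THRAP3, a nuclear speckle protein, had 227 CPM in P9, against 239 in P15, 236 in P22 and 225 in P38. KHDRBS1, the RNA-binding protein SAM68, had 276 CPM in P9, against 302 in P15, 270.4 in P22 and 283 in P38. ORC1, the largest subunit of the origin recognition complex, had 127 CPM in P9, against 141 in P15, 148 in P22 and 118 in P38. P9 was within the WT range as well at these genes. At SPEN, a transcriptional corepressor, P9 stood at 151 CPM, against 148 to 173 CPM in the other P95H clones. RPL7P9, whose parent RPL7 lies elsewhere, had 1097 CPM in P9, against 1071 in P15, 1122 in P22 and 1387 in P38.

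Between RNPC3 and LAMTOR5, P9 was above all 3 at PRPF38B, STXBP3, KCNC4 and LAMTOR5-AS1. PRPF38B, a splicing factor, had 210.4 CPM in P9, against 142 in P15, 156 in P22 and 174 in P38, and STXBP3, a vesicle fusion protein, had 55.9 CPM in P9, against 42.6 in P15, 54.5 in P22 and 51.6 in P38. P9 was above the other P95H clones at both, and PRPF38B was within the WT range of 141 to 211 CPM. Genes within this stretch also had lower values, chosen here after they were seen: CSF1, a macrophage growth factor, had 12.4 CPM in P9, against 22.9 in P15, 30.3 in P22 and 19.2 in P38, and GSTM3, a glutathione transferase, had 7.5 CPM in P9, against 13.2 in P15, 12.6 in P22 and 12.2 in P38. AKNAD1, in the same stretch, had 53 reads in P9 (2.03 CPM), none in the other P95H and the WT clones and 1 in the parental line. It was at least 64.9-fold higher in P9 than a floor of 3 reads over P15, P22 and P38 together. Intervals and floors cover counting error only.

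**Figure D4:**
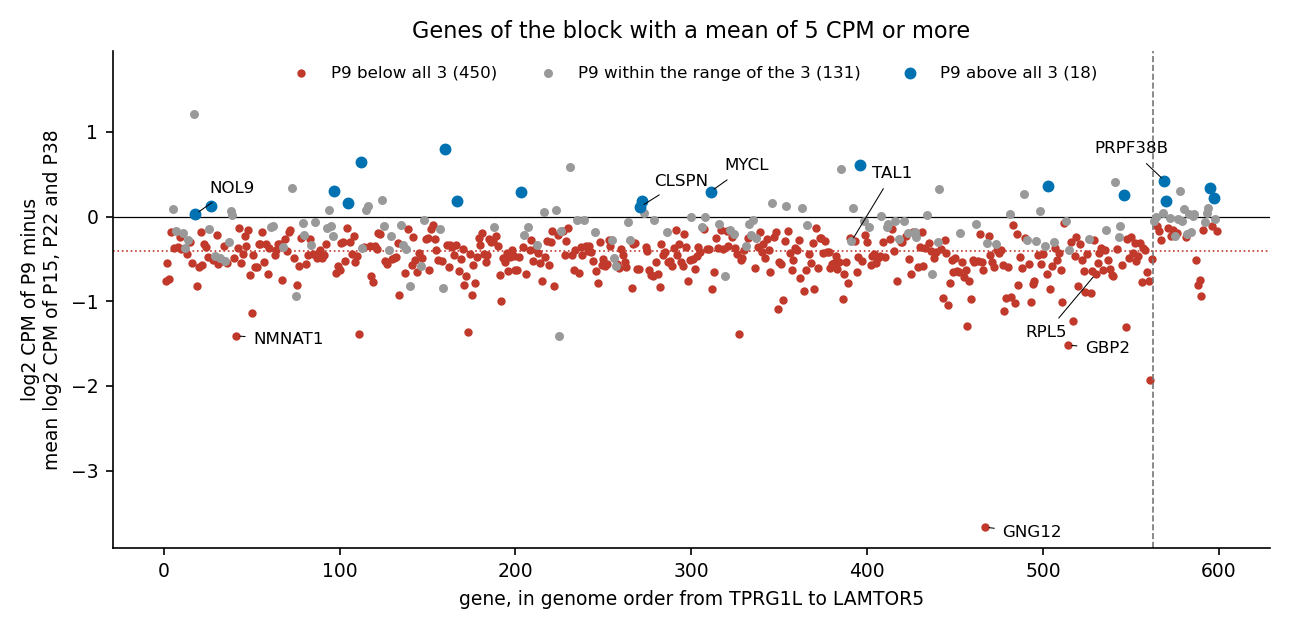
Log2 CPM of P9 minus the mean log2 CPM of P15, P22 and P38 for the 599 block genes with a mean of 5 CPM or more, in gene order. Colours give the place of P9 among the 4 clones, the dotted line is the median of -0.41 from TPRG1L to RPSAP19, and the dashed line separates RPSAP19 from RNPC3. Blue points, above all 3, are scattered among red ones.

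Outside the block, no gene passed the edgeR test of P9 against the other P95H clones: all adjusted p were 1, and 0.0% of all genes tested were called. At an unadjusted p under 0.05, where 3.75% of all tested genes stood, there were 598 of 19684 outside genes (3.04%), 232 higher and 366 lower in P9. DESeq2 called 18 outside genes, 2 higher and 16 lower (0.199% of all genes tested, block included), and limma-voom called 1 (0.00969%). The fit takes the spread of a clone from 5 residual degrees of freedom, with a biological coefficient of variation of 29.49%, and assumes that P9 varies like the other clones. The genes named next had the smallest unadjusted p among protein-coding genes with P9 outside the range of the others, or were called by DESeq2 or limma-voom, and none of them passed in edgeR.

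Among outside genes higher in P9, several were nearly silent in other clones. ASB9, an adaptor of a ubiquitin ligase on the X chromosome, had 7.27 CPM in P9, against 0.926 in P15, 0.209 in P22 and 0.166 in P38. MAF, a leucine zipper factor on chromosome 16, had 10.3 CPM in P9, against 0.895 in P15, 1.73 in P22 and 0.431 in P38. LGI2, on chromosome 4, had 7.69 CPM in P9, against 1.27 in P15, 0.119 in P22 and 0.531 in P38. The WT clones held 0.147 to 1.07 CPM for ASB9, 0.221 to 1.02 CPM for MAF and 0.128 to 0.711 CPM for LGI2, so P9 was the highest of the 9 libraries at all 3. Their edgeR log2 differences were 4.05 (SE 0.91) for ASB9, 3.33 (SE 0.77) for MAF and 3.58 (SE 0.93) for LGI2. Genes were named here only from a mean of 1 CPM over the 4 P95H clones. ASB9 and LGI2 reached that level only through P9, so their values describe P9 and are no test. RBPMS2, an RNA-binding protein on chromosome 15, had 36.4 CPM in P9, against 3.64 in P15, 5.94 in P22 and 11.2 in P38, but WT clones held 11 to 27.1 CPM, and DESeq2 called it with an adjusted p of 0.0387. PTMAP9, a pseudogene on chromosome 12, was the other gene that DESeq2 called higher.

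Others were higher from a measurable level. DOCK11, an activator of CDC42 on the X chromosome, had 101 CPM in P9, against 36.3 in P15, 61.8 in P22 and 39.6 in P38. ST6GAL1, a sialyltransferase on chromosome 3, had 70.1 CPM in P9, against 36.7 in P15, 41.7 in P22 and 48.3 in P38. EIF3C, an initiation factor subunit on chromosome 16 that has a near-identical copy, had 59 CPM in P9, against 38 in P15, 36.5 in P22 and 30.3 in P38. P9 was above every other library at each, with edgeR log2 differences of 1.14 (SE 0.28) for DOCK11, 0.73 (SE 0.19) for ST6GAL1 and 0.75 (SE 0.19) for EIF3C. KLF15, NLRP6 and SLC27A6 completed the 10 genes of the rule, at log2 differences of 1.45 (SE 0.40), 1.33 (SE 0.33) and 1.38 (SE 0.38). LINC02241, a non-coding RNA on chromosome 5, had 60 reads in P9, none in any other clone and 1 in the parental line, at least 73.5-fold above a floor of 3 reads over P15, P22 and P38 together. It is also the gene that limma-voom called, but it could be tested only through its reads in P9.

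Genes lower in P9 outside the block included receptors and signalling genes. FGFR1, a fibroblast growth factor receptor on chromosome 8, had 9.22 CPM in P9, against 43.6 in P15, 20.2 in P22 and 37.74 in P38, and the WT clones held 38 to 47.1 CPM. MRAS, a Ras-family GTPase on chromosome 3, had 1.95 CPM in P9, against 7.93 in P15, 11.6 in P22 and 9.99 in P38. CRIM1, a membrane protein that binds BMPs, on chromosome 2, had 0.383 CPM in P9, against 2.72 in P15, 1.82 in P22 and 4.38 in P38. P9 was the lowest of all libraries at the 3 genes, and their edgeR log2 differences were -1.87 (SE 0.42) for FGFR1, -2.33 (SE 0.51) for MRAS and -2.94 (SE 0.61) for CRIM1. DESeq2 called them with adjusted p of 0.00292, 0.00235 and 0.0114, and edgeR's adjusted p were 1. FGFR1 overlaps genes on the other strand.

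ZNF572, a zinc finger gene on chromosome 8, had no read in P9, against 80 in P15, 152 in P22 and 45 in P38. It was at least 25.1-fold lower in P9, where a floor of 3 reads corresponds to 0.115 CPM. IGF1, insulin-like growth factor 1 on chromosome 12, had 0.497 CPM in P9, against 13.4 in P15, 1.46 in P22 and 8.66 in P38, with P22 far below P15 and P38. ADAMTS9, a secreted protease, had 0.612 CPM in P9, against 1.73 in P15, 5.73 in P22 and 5.01 in P38. MT2A, a metallothionein, had 1.26 CPM in P9, against 6.98 in P15, 3.79 in P22 and 5.34 in P38. NFS1, the cysteine desulfurase of iron-sulfur cluster assembly on chromosome 20, had 20.2 CPM in P9, against 32.3 in P15, 33.2 in P22 and 30.1 in P38, and the WT clones held 46.3 to 51.8 CPM. KMO and OPN3, which overlap each other on the long arm of chromosome 1, were lower together, at log2 differences of -1.11 (SE 0.27) and -1.04 (SE 0.29). DVL1, a Wnt pathway gene on chromosome 1 before TPRG1L, also lay below every other clone, at 74.3 CPM. The 56 measured genes before TPRG1L are counted as outside the block, but had a median of -0.38 against the other P95H clones. Of the 16 genes that DESeq2 called lower, RPL22P8, RPL5P17, RPL5P23, RPL5P34 and SERBP1P6 are copies of block genes. EMSLR, an antisense gene on chromosome 7, had 0.727 CPM in P9, against 5.09 in P15, 4.75 in P22 and 3.35 in P38, and the pseudogenes ENSG00000213315 and RPS15AP38 had P9 at 9.68 and 43.2 CPM, where the other P95H clones held 25.2 to 33.1 CPM for ENSG00000213315 and 79.8 to 109 CPM for RPS15AP38.

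HBE1 had 1394 CPM in P9, against 835 in P15, 62.2 in P22 and 194 in P38, while the WT clones held 59 to 166 CPM and the parental line 63.8 CPM. P9 was highest, P15 came next, and P22 and P38 were close to the WT range. The edgeR log2 difference was 1.94 (SE 1.04), with an unadjusted p of 0.0994 and an adjusted p of 1. Without P15 the HBE1 difference was 3.43. Of 11 globin genes and partners tested, P9 was above all 3 other clones at 5, within range at 6 and below at none. Their median log2 difference was 0.25, against -0.004 over the 19684 tested genes outside the block. P9 was above all 3 at 25.4% of those outside genes and below at 21.3%. AHSP, the chaperone of alpha globin on chromosome 16, had 84.5 CPM in P9, against 25.6 in P15, 13.5 in P22 and 55.2 in P38, and the WT clones held 4.23 to 18.5 CPM. HBB, adult beta globin, had 1.26 CPM in P9, against 0.617 in P15, 0.0597 in P22 and 0.465 in P38. P9 was highest at both, but HBB is scarce in every library.

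The fetal and alpha-like globins did not share this place. HBG2 had 2620 CPM in P9, against 3002 in P15, 1102 in P22 and 2497 in P38, and HBZ, the embryonic zeta globin, had 226 CPM in P9, against 680.3 in P15, 94.3 in P22 and 199 in P38. P15 was the highest of the 4 at both. HBG1 and HBG2 are near-identical, so their split is uncertain. The globin genes of the beta cluster lie in a part of chromosome 11 where P15 ran above the WT mean, by bin medians of 0.31 to 0.60, and from KBTBD4 on P15 ran below it, by 0.17 to 0.67. Differences of P9 from the other clones on chromosome 11, which are mostly negative in the first part and positive in the second, move with P15. Its part in them was not tested.

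GNB1L was low in all P95H clones and lowest in P9. It had 16.6 CPM in P9, against 27.2 in P15, 26.4 in P22 and 26.1 in P38, while the WT clones held 43.8 to 72.2 CPM and the parental line 56.8 CPM, so the groups did not overlap. The edgeR log2 difference of P9 from the other P95H clones was -0.68 (SE 0.28), with an unadjusted p of 0.0419 and an adjusted p of 1. GNB1L overlaps TBX1 on the other strand, and TBX1 had 53.9 CPM in P9, against 81 in P15, 73.7 in P22 and 82.8 in P38. Of 21 tested genes of this neighbourhood on chromosome 22, P9 was below all 3 other clones at 12, within range at 8 and above at 1, DGCR2, with a median of -0.21. Over all tested genes outside the block, P9 was below all 3 at 21.3% and above at 25.4%. ZDHHC8, a palmitoyltransferase, had 79.9 CPM in P9, against 131 in P15, 129.8 in P22 and 108 in P38. P9 was lowest there. The bin of 25 genes that holds GNB1L and ZDHHC8 had a median of -0.19 with P9 below all 3 at 15. It is 1 of the 395 bins that ranged from -0.22 to 0.23.

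**Figure D5:**
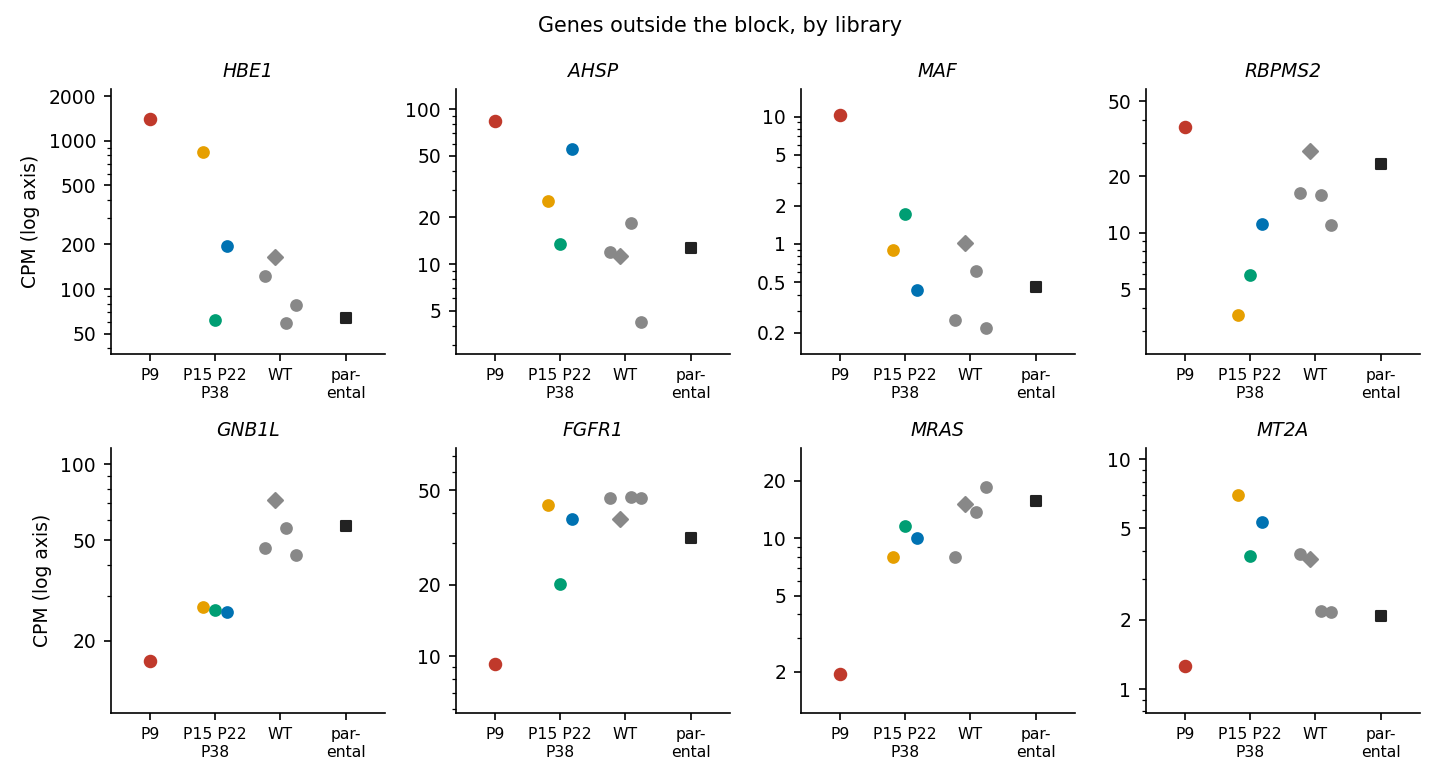
CPM on a log axis for 8 genes outside the block in each library, in the layout of the plot of block genes by library: P9, then P15 (orange), P22 (green) and P38 (blue), the WT clones with W33 as a diamond, and the parental line. P9 is highest at HBE1, AHSP, MAF and RBPMS2 and lowest at GNB1L, FGFR1, MRAS and MT2A, but none of these passed in edgeR.

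In the lists that follow, members that lie in the block were left out of the counts, and no gene passed the test. Over the 19684 tested genes outside the block, P9 was above all 3 other clones at 25.4% and below at 21.3%. Several lists are near those shares. Of 20 genes of the unfolded protein response, P9 was above all 3 other clones at 8, below at 3 and within range at 9, with a median of 0.12. HSPA5, the main chaperone of the endoplasmic reticulum, had 825 CPM in P9, against 591 in P15, 617 in P22 and 800.3 in P38, and SEL1L, of the degradation machinery there, had 44 CPM in P9, against 26 in P15, 28.9 in P22 and 32.8 in P38. P38 was close to P9 at HSPA5, and the WT clones held 804 to 1073 CPM. Of 16 SR proteins and splicing kinases, P9 was below at 5 and above at 3, and the other 3 of the list, in the block, were all below. Of 20 erythroid transcription factors, P9 was above at 5, among them LDB1, a cofactor of TAL1, with 172 CPM in P9, against 127 in P15, 142 in P22 and 146 in P38, and below at 2. Among 15 genes known to be bound by or dependent on TAL1, P9 was below at 1, above at 2 and within range at 12.

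Of 9 stem and progenitor genes tested, P9 was above all 3 at 5: MEIS1, MECOM, LIN28B, IGF2BP1 and IGF2BP3. The share above over tested genes outside the block was 25.4%, and the share below was 21.3%. IGF2BP1, an RNA-binding protein of fetal tissue, had 275 CPM in P9, against 214 in P15, 256 in P22 and 228 in P38. Of 26 glycolysis and hypoxia genes, P9 was below at 8 and above at 2, with a median of -0.10. PKM, a pyruvate kinase on chromosome 15, had 477 CPM in P9, against 523 in P15, 778 in P22 and 629 in P38, and the WT clones held 765 to 1110 CPM, so P15 and P38 were also under the WT clones there. Imprinted genes had P9 below at 2 of 11. CDKN1C, an inhibitor of cyclin-dependent kinases, was one, with 9.26 CPM in P9, against 34.5 in P15, 10.7 in P22 and 36.2 in P38. P22 was close to P9 at that gene.

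The remaining lists were mixed, beside shares of 21.3% below and 25.4% above over all tested genes outside the block. Of 15 heme genes, P9 was below all 3 at 1 and above at 4, and of 24 red cell membrane genes below at none and above at 4. Of 14 iron genes, P9 was below at 5 and above at 3, and of 11 megakaryocyte and platelet genes below at none and above at 3. Of 23 cholesterol synthesis genes, P9 was below at 1 and above at 4, and of 18 amino acid response genes below at 1 and above at 3. Of 19 heat shock genes, P9 was below at 3 and above at 1, and of 17 interferon response genes below at 3 and above at 3. Of 16 genes of the MYC network, P9 was below at 2 and above at 4, and of 13 p53 targets below at 2 and above at 2. Of 14 immediate early genes, P9 was below at 4 and above at none, and of 14 HOX genes and cofactors below at 1 and above at 2. UROS, a heme synthesis enzyme, was among those above, with 36.7 CPM in P9, against 29.4 in P15, 20.7 in P22 and 25.9 in P38.

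Markers of other blood and tissue cells were low or scattered. Of 11 myeloid markers tested, P9 was below all 3 other clones at 7, of which CSF3R lies in the block, and within range at 4. Over all genes tested, P9 was below all 3 at 23.2%. The summed level of the list was 89.1 CPM in P9, against 103 to 229 in the other P95H clones, 109 to 151 in the WT clones and 155 in the parental line. SPI1, the myeloid factor PU.1, had 13.9 CPM in P9, against 14.8 in P15, 56.6 in P22 and 17.3 in P38, with P22 standing apart, and MPO, ELANE, CSF1R, S100A8 and S100A9 were too low to test. Lymphoid markers summed to 148 CPM in P9 and 25.4 to 174 in the other P95H clones, mostly PTPRC except in P22, since it had 124 CPM in P9, against 112 in P15, 0.179 in P22 and 149 in P38. Mast cell and basophil markers summed to 104 CPM in P9 and 66.2 to 160 in the others, mostly GATA2. KIT, the stem cell factor receptor, had 1.15 CPM in P9, against 0.432 in P15, 35.9 in P22 and 1.53 in P38. Fibroblast and epithelial markers summed to 1072 CPM in P9 and 1024 to 1505 in the others, mostly VIM, KRT8 and KRT18, and P9 was below all 3 at 4 of 10.

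Set against the WT clones, P9 again had no call in edgeR (0.0% of genes tested), where the smallest adjusted p was 0.373. At an unadjusted p under 0.05, where 7.89% of all tested genes stood, there were 1426 outside genes, 742 higher and 684 lower. DESeq2 called 143 outside genes, 64 higher and 79 lower (0.974% of all genes tested, block included), and limma-voom called 47 (0.271%). The other P95H clones against the WT clones had no edgeR call among the 952 block genes (0.0% of all genes), 82 genes at an unadjusted p under 0.05 (8.8% of all genes), 6 calls by DESeq2 (0.567% of all genes) and none by limma-voom.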

How the data were processed

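Poly(A)-selected total RNA of each clone was sequenced on a HiSeq2000 from TruSeq RNA libraries, per the labels' protocols. The standard form of that kit does not mark strand. The values are counts of reads per gene as deposited, 1 file per library. The genome build GRCh37 and the tools TopHat2 2.0.4, HTSeq 0.6.1p1 and bcl2fastq are named, per the submitters' processing notes, and the labels of the files name Ensembl genes. How strand and overlaps were set in counting was not given in the sources used here. Reads in no gene (47.6 to 49.1%) were left out of the library sizes. Symbols, chromosomes and gene order came from GENCODE 29, which is of another build, so no coordinates are given.

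Counts were tested with edgeR 4.0.16 (quasi-likelihood, TMM, adjusted over all 20636 genes). The fit covered P9, the other P95H clones, the WT clones and the parental line as separate groups, with 5 residual degrees of freedom. DESeq2 1.42.0 and limma 3.58.1 (voom) in R 4.3.3 were alternatives. Log2 CPM used a prior count of 2. The block was described over genes with a mean of 5 CPM, and lists over tested genes by their edgeR log2 differences. The members and lists were chosen with earlier results of these data known. Genes were named by rank: all 18 above and the 12 furthest below in the block, 4 per list, block ends, and outside it the 10 with the smallest p in each direction. Exceptions are named in the text.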

Additional observations from a re-analysis of the deposited data

Results flagged for a closer look

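In the 4 WT clones, 31 of 198 values had 1 clone far from the other 3 by Dixon's criterion, which chance gives in about 1 of 20 groups. The 198 values come from the same 4 libraries and are not independent, so their count cannot be judged by that rate. W33 was the far clone at 25 of them and the lowest clone at 11. W33 had a block share of 5.28% of gene counts and a block median of -0.15 against the WT mean.

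Among block genes, W33 was the highest WT clone at UROD (657 CPM), EIF3I (570.2), PRDX1 (896) and SMIM1 (15.6). It was the lowest at EPB41 (223 CPM), SLC2A1 (115), HNRNPR (296), STXBP3 (35.9) and TP73-AS1 (60.2), while W36 was the highest at ENO1 (3339). Outside the block, W33 was the lowest at SRSF2 (447.8 CPM), FGFR1 (38.01), TPM1 (13.8) and MXD1 (13.7). It was the highest at UROS (27.4 CPM), FTH1 (1034), NPM1 (981), JUND (129.9), CDKN1C (49.6) and HSPE1 (24.4). W33 was also the highest at the weakly expressed CD3E (1.42 CPM), CD79A (0.4001), CD79B (0.0889) and ISG20 (0.578). W42 stood apart at MEG3 (635 CPM), DOCK11 (52.2) and SLC27A6 (28.3), W36 at ZNF572 (1.12) and W19 at ENPP3 (0.0364).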

How the results depend on the processing

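No gene outside the block was called by edgeR for P9 against the other P95H clones under any scaling, filter or left-out clone tried, while DESeq2 called 18 and limma-voom 1. Against the WT clones DESeq2 called 143 and limma-voom 47 outside genes, and DESeq2 called 6 block genes for the other P95H clones against the WT clones. The cause of these differences between tools was not tested. The block median of -0.392 became -0.40 with RLE factors, -0.42 with TMM factors from outside the block, -0.37 at a mean of 1 CPM or more, -0.31 against the WT clones, -0.35 against all 8 other libraries and -0.41 for TPRG1L to RPSAP19, a limit added after the data were seen. Leaving out 1 other clone gave -0.40 to -0.39. The 149 genes at which P9 was not below all 3 became 242 at 1 CPM or more, 78 at 20 CPM or more, 279 against the WT clones, 312 against all 8 libraries and 47 where the others had an SD under 0.2, also added later, and 108 to 124 with 1 clone left out. Among named genes, 2826 of 2873 alternative values stayed the same. Outside the block this means that sign and call were kept. In the block it means a shift smaller than the SD of log2 CPM over P15, P22 and P38, and calls were not compared there. The outside values that became calls came from DESeq2, and at LINC02241 from limma-voom. In the block, 17 values moved beyond that SD, 11 of them at AKNAD1. The others were at STMN1, SCP2, PEF1 and NOL9, which was at -0.002 without P22. Signs turned at TNFRSF14-AS1 (0.35 with limma-voom, -0.90 to 0.52 with 1 clone left out), MMEL1 (-0.99 to 0.020), ARHGEF16 (-0.57 to 0.10), CD53 (-3.16 to 0.19), ENSG00000273010 (0.014 with limma-voom, -0.089 to 0.020), KIT (-4.04 to 0.22), ENPP3 (-3.68 to 0.10), CD7 (-1.15 to 0.086) and CD79B (0.12 with limma-voom). The positive ends were without P15 at TNFRSF14-AS1, MMEL1, ARHGEF16 and CD7 and without P22 at CD53, ENSG00000273010, KIT and ENPP3. No paired analysis was possible because the clones share no replicate numbers. P9 is 1 library, so its own spread was not measured.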
